A study of Mus musculus with 2 samples.

Results

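The platelet-derived growth factor (PDGF) ligand genes Pdgfa, Pdgfb, Pdgfc and Pdgfd and the receptor genes Pdgfra and Pdgfrb were examined in mouse embryonic ureters of stage E14.5, the ducts between kidney and bladder. They are 6 of 31693 genes on the array, measured by 8 of 39429 probes, and were taken as every non-control probe whose gene name is one of the 6 symbols. All 6 genes were among the 21977 that entered the test, and all 8 probes were well above background in all 4 channels. Their spots stood at least 11.6 times over the local background median, the lowest value being that of 1 of the Pdgfb probes.

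Bmp4cKO embryos had the genotype Tbx18(cre/+);Bmp4(fl/fl), and controls had the genotype Tbx18(+/+);Bmp4(fl/?), a label that does not name the second Bmp4 allele. Both were on the NMRI strain. The cre is expressed from the Tbx18 locus, which is active in the mesenchyme around the ureter, so Bmp4cKO embryos also have a single intact Tbx18 copy, which controls do not share, and the comparison holds no cre-positive control with intact Bmp4. Each of 2 two-colour arrays carried 1 Bmp4cKO and 1 control RNA, with the dyes swapped between arrays, and the sources used here do not state whether RNA of several embryos was pooled. On replicate 1, labelled female, the Bmp4cKO RNA carried AlexaFluor555 and the control RNA AlexaFluor647, and on replicate 2, labelled male, the dyes were the other way round. The p-values rest on the spread between these 2 arrays, with each gene's variance drawn towards that of all genes. How much of that spread is technical is not known.

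Bmp4 encodes a secreted bone morphogenetic protein made by the mesenchyme of the ureter, and the comparison asks which transcripts differ once it is deleted there. Its signal went against the labels. The probe read 29491 and 27393 in the RNA labelled Bmp4cKO, against 3613 and 1973 in the RNA labelled control (replicates 1 and 2, Feature Extraction processed signal in arbitrary units). The log2 ratios of the Bmp4 probe averaged 3.38 ± 0.48 (SD, n = 2 arrays), at a limma adjusted p of 0.016. Tbx18, of which Bmp4cKO embryos have a single intact copy, also read higher in the RNA labelled Bmp4cKO. The Tbx18 probe read 5076 and 5851 there, against 2603 and 2875 in the RNA labelled control. The log2 ratios of Tbx18 averaged 0.97 ± 0.17 (SD, n = 2 arrays; limma adjusted p = 0.040). The sources used here do not state whether the Bmp4 probe lies in the deleted stretch, and a probe outside it would not read the deletion itself. The authors' deposited table runs the other way, where the signed fold of Bmp4 is -8.16 and -13.9. Xist on replicate 2, labelled male in both channels, read 2120 in the RNA labelled Bmp4cKO, against 85.2 in the RNA labelled control. Ddx3y, a Y-linked gene, read 6.25 there in the RNA labelled Bmp4cKO, a spot not called above background, against 2720 in the RNA labelled control. The male label thus failed for the RNA labelled Bmp4cKO, and on replicate 2 sex and genotype cannot be told apart. All ratios are therefore given with the RNA labelled Bmp4cKO on top and that labelled control below, and every direction turns round if the dye labels are exchanged. Whether a gene's ratio has the sign of the Bmp4 probe does not depend on which label is right, so it is given for each gene.

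PDGF ligands are secreted dimers that bind and pair the receptor tyrosine kinases encoded by Pdgfra and Pdgfrb. PDGF-A and PDGF-B are released in active form, whereas PDGF-C and PDGF-D are released latent and are activated when proteases remove their CUB domain. PDGF-A and PDGF-C act chiefly through the receptor made from Pdgfra, a marker of fibroblasts and other mesenchyme, and PDGF-B and PDGF-D bind the receptor made from Pdgfrb, a marker of the mural cells around vessels. Endothelial PDGF-B is known for drawing mural cells to growing vessels, and epithelial PDGF-A for signalling to the mesenchyme beneath.

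The first 30 of the 60 bases of 7 probes are shown, since each value below is the signal of these oligonucleotides and 2 genes have a pair of probes. The Pdgfa probes overlap by 51 bases, and capitals mark the 21 shared bases that fall in both printed stretches. They are thus no independent measurements of Pdgfa. The Pdgfb probes lie 1002 bases apart.
Pdgfa, brighter probe: actgtagcaCTCAGAGAGACAGTGAGAAAG
Pdgfa, dimmer probe: CTCAGAGAGACAGTGAGAAAGcttccttgt
Pdgfb, brighter probe: gttccttctgcttccttcagtttgtaaagt
Pdgfb, dimmer probe: actccaggctgcaggcttctcttgactcca
Pdgfc: aaatatggagccattgctaacctacccctt
Pdgfd: gaaggggcaaagctaagaatatggctcttg
Pdgfra: tgtatatatctgttgctatgtagacttgga
In mm9, the build of the file headers, the Pdgfa probes lie at chr5:139452934-139452993 and chr5:139452925-139452984 on the minus strand. The Pdgfb probes lie at chr15:79826376-79826435 and chr15:79827438-79827497, also on the minus strand. On the plus strand lie the probes of Pdgfc at chr3:81017572-81017631, of Pdgfd at chr9:6376926-6376985 and of Pdgfra at chr5:75593888-75593947. The exon or untranslated region under each probe was not looked up, since no annotation of that build was used here.

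None of the 6 genes passed the threshold of an adjusted p of 0.05 in limma's test over all 21977 genes, either as higher (0 of 6) or as lower (0 of 6). Over all genes 1.91% were called, 0.887% as higher and 1.02% as lower. At an unadjusted p under 0.05 there were 2 members, Pdgfra with a positive and Pdgfc with a negative ratio, against 14.52% of all genes. The ratio had the same sign on both arrays for 5 of the 6, 4 positive and 1 negative, where 58.8% of all genes kept their sign. The median log2 ratio of the 6 genes was 0.15, beside -0.01 over all genes tested. Pdgfc stood lowest at a mean log2 ratio of -0.82 and Pdgfra highest at 0.41, and the other 4 lay between 0.00 and 0.21.

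**Figure D1:**
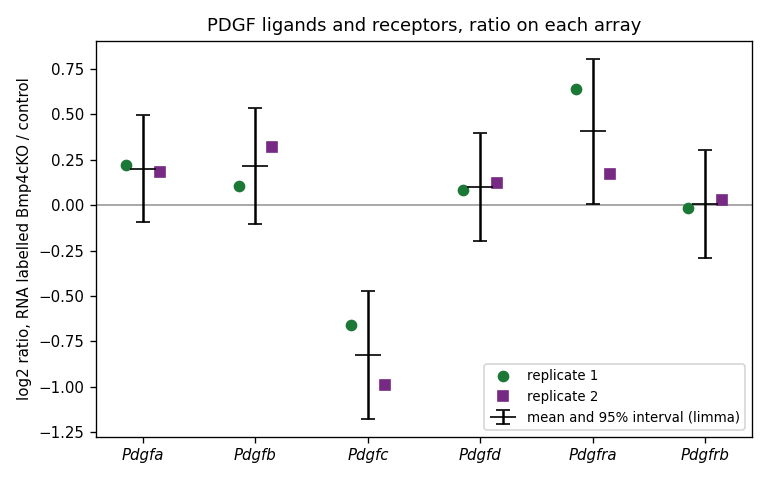
Log2 ratio, RNA labelled Bmp4cKO / control (vertical axis), for the 6 genes (horizontal axis), with 1 point for each array and the mean with its 95% interval from limma as a bar. Pdgfc lies below 0 on both arrays at -0.66 and -0.99, Pdgfra above 0 at 0.64 and 0.17, and both Pdgfrb points lie next to 0.

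Among the ligands that act through the Pdgfra receptor, Pdgfc encodes a latent ligand made in embryonic mesenchyme and epithelium. Its probe read 2375 and 2603 in the RNA labelled Bmp4cKO, against 3776 and 5246 in the RNA labelled control (replicates 1 and 2). Both signals of the RNA labelled Bmp4cKO lay below both of the RNA labelled control, as did those of 17.7% of all genes. Replicate 1 gave a log2 ratio of -0.66 and replicate 2 one of -0.99, averaging -0.82 ± 0.23 (SD, n = 2 arrays), or 1.77-fold lower in the RNA labelled Bmp4cKO. The 95% interval was -1.17 to -0.47, and the difference did not pass (limma unadjusted p = 0.00179, adjusted p = 0.064). Of the 21977 genes, 347 had a lower mean ratio, 609 had a smaller p, and 660 had a larger ratio in either direction. Pdgfc passed in 1 of 11 other settings, the test whose prior variance follows intensity, at a limma adjusted p of 0.00899, where 3.05% of all genes were called lower. Over the 11 settings the adjusted p lay between 0.00899 and 0.34. Its sign was opposite to that of the Bmp4 probe on both arrays.

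Pdgfa encodes the other chief ligand of the Pdgfra receptor. Its brighter probe read 3893 and 5409 in the RNA labelled Bmp4cKO, against 3410 and 4706 in the RNA labelled control. The groups overlapped, and both channels of replicate 2 read higher than those of replicate 1, while within each array the RNA labelled Bmp4cKO was the higher. The log2 ratio was 0.22 and 0.18, averaging 0.20 ± 0.03 (SD, n = 2 arrays; 95% interval -0.10 to 0.50; limma adjusted p = 0.55). The overlapping dimmer probe gave 0.17 and 0.21. Pdgfa thus had the sign of the Bmp4 probe on both arrays without passing the test.

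Among the ligands of the Pdgfrb receptor, Pdgfb read 1622 and 2272 in the RNA labelled Bmp4cKO, against 1550 and 1800 in the RNA labelled control at its brighter probe. Here too the groups overlapped, and the RNA labelled Bmp4cKO was the higher within each array. The log2 ratio was 0.11 and 0.32, a mean of 0.21 ± 0.15 (SD, n = 2 arrays; 95% interval -0.11 to 0.53; limma adjusted p = 0.55). The probes of this gene did not give the same picture. The dimmer probe read 296 and 415 in the RNA labelled Bmp4cKO, against 308 and 326 in the RNA labelled control, with ratios of -0.08 and 0.31. Its sign therefore differed between the arrays, and on replicate 1 it was opposite to that of the brighter probe. The brighter probe had the sign of the Bmp4 probe on both arrays, the dimmer one on replicate 2 only.

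Pdgfd, the latent ligand of the Pdgfrb receptor, read 1430 and 1389 in the RNA labelled Bmp4cKO, against 1285 and 1311 in the RNA labelled control. Both signals of the RNA labelled Bmp4cKO lay above both of the RNA labelled control, as did those of 16.4% of all genes. The ratio was small, at 0.08 and 0.12, a mean of 0.10 ± 0.03 (SD, n = 2 arrays; 95% interval -0.19 to 0.40; limma adjusted p = 0.81). It had the sign of the Bmp4 probe, and 56.1% of all genes had a larger change.

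**Figure D2:**
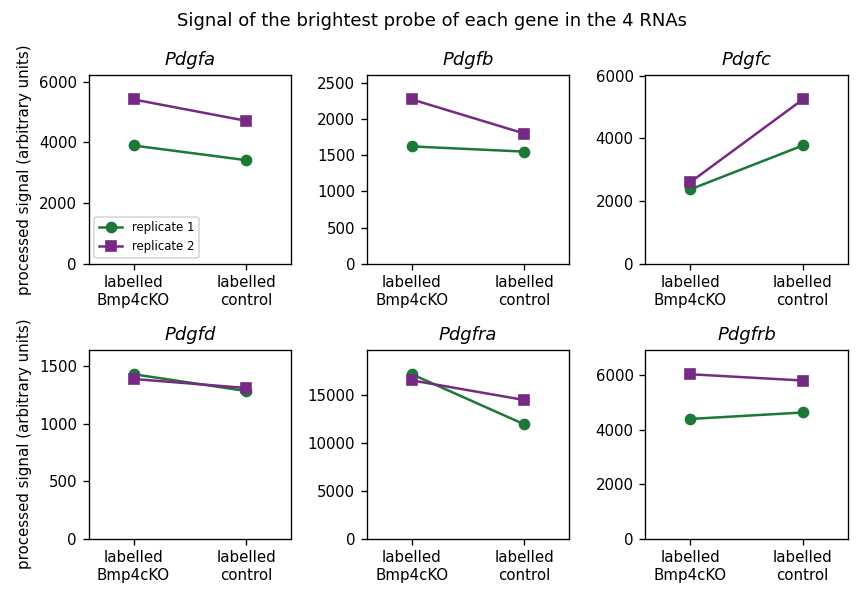
Feature Extraction processed signal in arbitrary units (vertical axes, from 0 and scaled for each gene), with RNA labelled Bmp4cKO on the left and RNA labelled control on the right, for the brightest probe of each gene, with a line for each array. Both Pdgfc lines run upward from left to right (2375 against 3776 and 2603 against 5246), and both Pdgfra lines run downward (17144 against 11910 and 16505 against 14454). Signals average all spots of a probe, outlier spots included.

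Of the receptors, Pdgfra read 17144 and 16505 in the RNA labelled Bmp4cKO, against 11910 and 14454 in the RNA labelled control. These signals average all 10 spots of the probe, whereas the ratio of replicate 1 leaves out its outlier spots. Both signals of the RNA labelled Bmp4cKO lay above both of the RNA labelled control, which held for 16.4% of all genes. Replicate 1 gave a log2 ratio of 0.64 and replicate 2 one of 0.17, averaging 0.41 ± 0.33 (SD, n = 2 arrays), 1.33-fold on the linear scale. The 95% interval, 0.01 to 0.81, only just left out 0, and the difference did not pass after adjustment (limma unadjusted p = 0.0477, adjusted p = 0.34). It had the sign of the Bmp4 probe on both arrays, and 11.1% of all genes had a larger change.

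The Pdgfra probe was printed in 10 spots on each array, which allows its printing and reading error to be seen apart from the difference between arrays. On replicate 1, the 8 spots left after outlier removal had log2 ratios of 0.60 to 0.68 with a median of 0.65. The spots removed there read 13184 and 13567 in the RNA labelled Bmp4cKO, against 10445 and 10809 in the RNA labelled control. These were the lowest signals of the 10 spots in both channels, and the range and SD of replicate 1 leave them out. On replicate 2, the 10 spots had ratios of 0.10 to 0.26 with a median of 0.17. All spots kept lay above 0, and the ranges of the arrays did not meet. The SD over the spots kept was 0.031 and 0.049, against a median of 0.067 and 0.046 for the 315 probes of 10 spots that entered, Pdgfra included. Spots of 1 array are repeats of the same RNA rather than replicates. With each array's ratios centred on their median in place of loess, the order of the arrays turned round, with Pdgfra at 0.31 on replicate 1 and 0.59 on replicate 2 and the mean at 0.45.

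**Figure D3:**
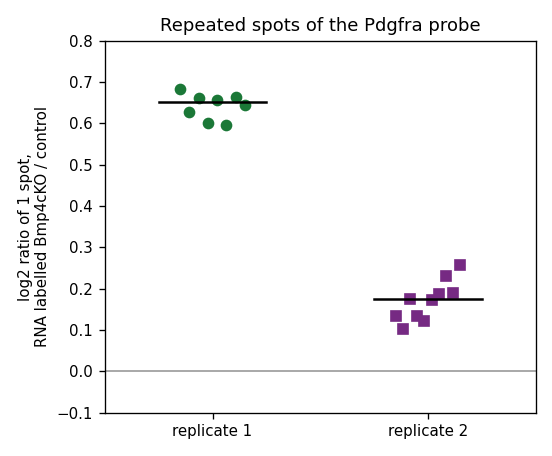
Log2 ratio, RNA labelled Bmp4cKO / control (vertical axis), for each usable spot of the Pdgfra probe on the 2 arrays (horizontal axis), with a line at each median. The 8 spots of replicate 1 lie from 0.60 to 0.68 and the 10 spots of replicate 2 from 0.10 to 0.26.

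Pdgfrb, whose probe lies at chr18:61244606-61244665 in mm9 on the plus strand, read 4394 and 6037 in the RNA labelled Bmp4cKO, against 4632 and 5807 in the RNA labelled control. The groups overlapped, with the RNA labelled Bmp4cKO the lower on replicate 1 and the higher on replicate 2. The log2 ratio was -0.02 and 0.03, averaging 0.00 ± 0.03 (SD, n = 2 arrays; limma adjusted p = 0.99). The 95% interval ran from -0.29 to 0.30, so differences within these bounds were not resolved by 2 arrays. Pdgfrb had the sign of the Bmp4 probe on replicate 2 only.

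The members were also set against each other within an array, where both ratios come from the same RNAs. Pdgfra minus Pdgfc came to 1.30 and 1.16 on the log2 scale, a mean of 1.23, a pair that holds the highest and the lowest ratio of the 6. Pdgfra minus Pdgfrb came to 0.66 and 0.14, a mean of 0.40. These differences describe 2 arrays and were not tested.

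**Figure D4:**
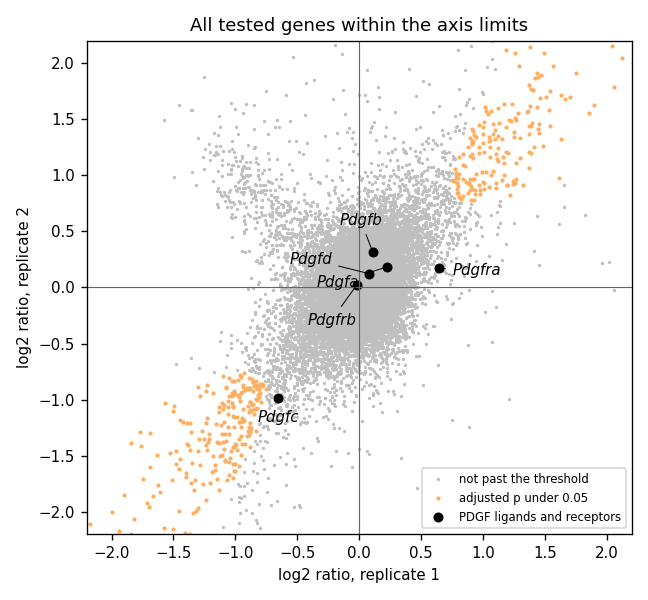
Log2 ratio on replicate 1 (horizontal axis) against replicate 2 (vertical axis) for the genes tested within the axis limits, with genes at an adjusted p under 0.05 in orange and the 6 PDGF genes in black. Pdgfc, at -0.66 and -0.99, lies at the edge of the called genes to the lower left, and the other 5 members lie among the genes that were not called.

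The 5' flanks of Pdgfc and Pdgfra are shown because these genes had the lowest and the highest ratio of the 6. Bone morphogenetic proteins signal through SMAD proteins, whose binding elements include the sequences GGCGCC and CAGAC. RefSeq promoters of assembly GRCm38.p6 were on hand for 4 of the 6 genes, 5 promoters in all, and the 250 bases before the start site were searched on both strands. Capitals mark CAGAC or its complement GTCTG.
Pdgfc: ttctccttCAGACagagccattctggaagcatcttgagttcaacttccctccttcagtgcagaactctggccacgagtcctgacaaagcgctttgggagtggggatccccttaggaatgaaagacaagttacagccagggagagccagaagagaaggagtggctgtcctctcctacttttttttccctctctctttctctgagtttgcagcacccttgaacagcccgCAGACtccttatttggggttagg
Pdgfra: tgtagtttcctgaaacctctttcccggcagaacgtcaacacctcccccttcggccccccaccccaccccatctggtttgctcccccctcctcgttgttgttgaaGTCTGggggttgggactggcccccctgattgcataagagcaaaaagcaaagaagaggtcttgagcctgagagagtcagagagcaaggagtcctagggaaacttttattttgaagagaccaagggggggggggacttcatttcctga
In GRCm38.p6, which is not the build of the probes, the Pdgfc stretch is chr3:81036166-81036415 and the Pdgfra stretch is chr5:75152001-75152250, both on the plus strand. CAGAC was found 2 times for Pdgfc, 1 time for Pdgfra and 2 times for Pdgfd, and at neither Pdgfa promoter. GGCGCC was found in none of the 5. Of 32851 promoters of the same length, 42.2% held CAGAC and 9.59% held GGCGCC, and no matches of the pair overlapped in these stretches. GC content was 50.8% for Pdgfc and 54.4% for Pdgfra, beside a median of 52.4%. A match is a run of letters and was not tested as a binding site.

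Of the other genes of the pathway, 68 of 71 were tested in 6 lists. Of these, 0 passed in limma in either direction, where 1.91% of all genes did. At an unadjusted p under 0.05 there were 11 of the 68, against 14.52% of all genes. The median log2 ratio of the 68 was 0.05, beside -0.01 over all genes. Among the related vascular endothelial growth factor ligands, 0 of 5 passed, and Pgf, placental growth factor, had the largest change, at 0.61 and 0.57 (limma adjusted p = 0.094). Among related receptor kinases, 0 of 6 passed, and Kdr, a receptor of endothelial cells, stood highest at a mean of 0.34 ± 0.16 (SD, n = 2 arrays), with its other passing probe at 0.05 and the mean of both probes at 0.19.

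Of the proteases and extracellular partners of PDGF ligands, 0 of 9 passed. Lrp1, a scavenger receptor that binds the PDGF receptor of mural cells, came closest, with log2 ratios of -0.83 and -0.70 (mean -0.77 ± 0.10, SD, n = 2 arrays; limma adjusted p = 0.056). Of the proteins that carry the signal from the receptors, 0 of 25 tested passed. Pik3r1, the regulatory subunit of phosphoinositide 3-kinase that docks on activated receptors, had ratios of -0.87 and -0.72 (mean -0.79 ± 0.10, SD, n = 2 arrays; limma adjusted p = 0.055). Lrp1 and Pik3r1, each the largest change of its list and short of the threshold, were below 0 on both arrays like Pdgfc. So were 30.6% of all genes. Of the 68 pathway genes tested, 16 were below 0 on both arrays and 22 above. In other settings Lrp1 passed in 3 of 11 and Pik3r1 in 4 of 11. Of the negative regulators 0 of 13 passed, and Errfi1, a feedback inhibitor of receptor kinases, had the largest change at 0.30 and 0.62 (limma adjusted p = 0.22).

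Genes that PDGF induces early in cultured fibroblasts had unlike ratios on the arrays. Of the 10 tested, 0 passed and 7 had opposite signs, where 58.8% of all genes kept their sign. The list median was -0.54 on replicate 1 and 1.32 on replicate 2. The zinc finger gene Egr2 read -0.14 and 2.08. The list's median log2 of red over green was 0.93, so its genes were on balance brighter in red, which is the RNA labelled Bmp4cKO on replicate 2. The part of dye, sex and array in these values was not tested, and 1 array of each orientation cannot tell them apart.

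Pdgfra was set beside the other markers of fibroblasts. Of the 12 markers, itself included, 0 passed, 5 had a ratio above 0 on both arrays and 2 below 0 on both, and 5 had opposite signs. Over all genes, 28.2% were above 0 on both arrays and 30.6% below. The list median was -0.09 on replicate 1 and 0.75 on replicate 2. The summed signal of the 12 markers was 297256 and 450837 in the RNA labelled Bmp4cKO, against 368737 and 301603 in the RNA labelled control. Col1a1 and Dcn, which encode collagen and decorin of the fibroblast matrix, had ratios of -1.35 and 1.03, and -0.68 and 1.43. Dpt, which encodes the matrix protein dermatopontin and had the largest change of the list, had ratios of 0.45 and 1.21 (limma adjusted p = 0.15), above 0 on both arrays like Pdgfra. The part of these cells in the Pdgfra value was not tested. In bulk RNA, fewer cells of a type and less RNA per cell cannot be told apart.

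Of the 12 mural cell markers, Pdgfrb included, 0 passed, with a median of -0.13 beside the 0.00 of Pdgfrb. The summed signal was 31632 and 37072 in the RNA labelled Bmp4cKO, against 35797 and 41905 in the RNA labelled control, lower in the RNA labelled Bmp4cKO within each array. Mcam made up the largest part of that sum, at 15206 and 14757 against 17052 and 19313. Its other passing probe averaged -0.03. The markers did not share 1 direction, with 4 above 0 on both arrays and 6 below 0 on both. Of all genes, 28.2% were above and 30.6% below. Rgs5 had a mean ratio of 0.36, Cspg4 of -0.38 and Notch3 of -0.35, all short of the threshold. Ndufa4l2 had the largest change, at 0.92 ± 0.52 (SD, n = 2 arrays) and a limma adjusted p of 0.12.

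For Pdgfb, which endothelial cells express, 0 of 14 endothelial markers passed, though 12 had a ratio above 0 on both arrays and 0 below 0 on both, with a median of 0.27. Over all genes, 28.2% had a ratio above 0 on both arrays and 30.6% below 0 on both. The summed signal of the endothelial markers was 59605 and 76401 in the RNA labelled Bmp4cKO, against 51808 and 55208 in the RNA labelled control. Pecam1 had a mean ratio of 0.19, Cdh5 of 0.25 and Sox17, with the largest change, of 0.66 (limma adjusted p = 0.19). Pdgfb is also made by megakaryocytes, of whose markers 0 of 6 passed, and Pf4, a platelet chemokine, had a mean of 0.70 (limma adjusted p = 0.071). Macrophage markers had 0 of 9 passing and a median of -0.06, with 2 above 0 on both arrays and 4 below 0 on both. Ptprc, a surface marker of white blood cells, had ratios of -0.76 and -0.83 (limma adjusted p = 0.051) and passed in 5 of 11 other settings. Mrc1 went the other way at a mean of 0.40, and the 3 passing probes of Csf1r averaged between -0.68 and 0.04. The part of these cell types in the Pdgfb value was not tested.

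Some markers of the urothelium and of smooth muscle did pass the test, as did 1.91% of all genes. Of 13 urothelial markers, 6 were higher in the RNA labelled Bmp4cKO and 0 lower, led by the uroplakin genes Upk1b at 3.72, Upk3a at 2.48 and Upk2 at 2.41. Those that did not pass ran from Trp63 at 0.04, Krt5 at 0.06 and Epcam at 0.14 up to Grhl3 at 1.89. The other passing probe of Trp63 averaged 2.56. The Pdgfa ratio of 0.20 stood beside a urothelial median of 0.86. Of 9 smooth muscle markers tested, 3 were higher (Myh11 at 2.48, Actg2 at 2.31 and Cnn1 at 2.14) and 1 lower (Synpo2 at -1.57), while Acta2 stood at 1.13 (limma adjusted p = 0.056). The mean ratio of Pdgfrb was 0.00 beside these. The 3 passing probes of Synpo2 had means between -1.57 and -0.56. The direction of these markers turns with the dye labels like that of Bmp4.

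Markers of nerve and of kidney stroma lay on the side of Pdgfc. Of 8 neuronal and Schwann cell markers, 3 were lower in the RNA labelled Bmp4cKO and 1 higher, with Tubb3, a tubulin of neurons, at -1.52 and S100b, a glial marker, at 0.92. Of 6 kidney stroma markers, 2 were lower, Smoc2 at -1.43 and Alx1 at -1.30, and the list median was -0.92. Their summed signal was 66303 and 63600 in the RNA labelled Bmp4cKO, against 68086 and 103129 in the RNA labelled control. Tcf21, the largest part of that sum in the RNA labelled Bmp4cKO, read 43166 and 32396 there. In the RNA labelled control Tcf21 read 27354 and 36312, so it was the lower there on replicate 1 only. The control sum of replicate 2 also holds Ren1 at 7357, against 452 on replicate 1. The part of these cells in the Pdgfc value was not tested. Over the 9 marker lists, 16 of the 89 markers tested passed, 10 higher and 6 lower, where 1.91% of all genes did. With median centring in place of loess, 0 of all genes were called in limma (1760 at an unadjusted p under 0.05), so no marker passed there, and with a robust prior Myh11, Actg2, Upk1b and Upk2 did not pass.

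**Figure D5:**
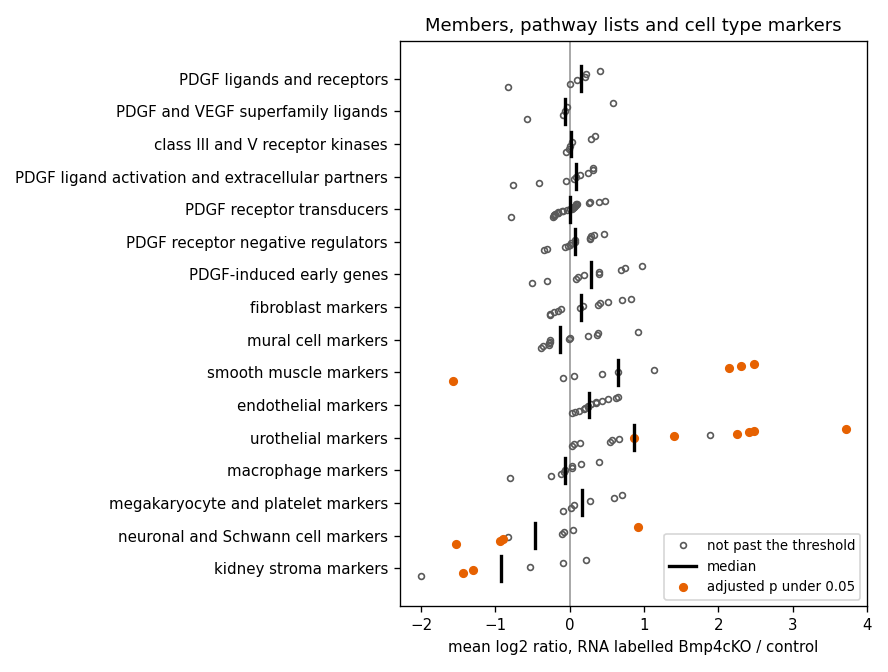
Mean log2 ratio over the 2 arrays (horizontal axis, RNA labelled Bmp4cKO over RNA labelled control) for the 6 PDGF genes, the 6 pathway lists and the 9 marker lists (rows), with 1 point a gene, filled where the adjusted p is under 0.05, and a bar at each median. No point of the PDGF genes or the pathway lists is filled, and the filled points lie among smooth muscle, urothelial, neuronal and kidney stroma markers.

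Across the 154 list genes tested, the nearest to each member was found by the larger of the differences of log2 ratio on the 2 arrays. Pdgfb lay next to Erg, an endothelial transcription factor, at a distance of 0.0046, with 3 genes of the whole table as near, and then to the adaptor gene Nck1, at 0.051, with 245 as near. Erg was dim, with signals of 20.5 and 30.2 in the RNA labelled Bmp4cKO, against 18.1 and 20.4 in the RNA labelled control, and the probes of Pdgfb itself lay further apart than Erg and Pdgfb. Pdgfc lay nearest to the neuronal genes Elavl4, at 0.11, and Elavl3, at 0.15, with 53 and 85 genes of the whole table as near. Pdgfra lay nearest to the pericyte gene Rgs5, at 0.14, and the macrophage gene Mrc1, at 0.15. Pdgfa lay nearest to Pecam1 and Rasa1, Pdgfd to Myc and Sos2, and Pdgfrb to Higd1b and Vegfc, within 0.036 to 0.071. For these last genes, and for Rgs5 and Mrc1, between 60 and 680 genes of the whole table were as near.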

How the data were processed

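Per the file headers, Agilent Feature Extraction 10.7.3.1 read the arrays, and coordinates refer to mm9. Deposited spot and background values are linear intensities as scanned. Deposited processed signals are intensities after detrending and dye normalization in that software. A deposited log10 ratio sets red over green, per the file headers. The authors' value table holds a score that matched a signed fold of the processed signals. The sample titles read Bmp4cKO vs control, and no source says outright which RNA that fold has on top. A log2 value computed here was turned by the dye labels, per the labels.

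Of 44397 spots, 1377 were controls. In each channel 69.3% to 74.6% of the spots lay well above background. 0 spots were saturated, and 231 and 235 outlier spots were left out of the ratios. The processed signals given for each channel average all spots of a probe, outlier spots included. Both arrays lay on 1 slide with 1 scan time.

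Background was corrected by normexp (offset 50) and ratios by loess within each array, giving controls a weight of 0 (limma 3.58.1, R 4.3.3). Plain subtraction of background was an alternative. Spots were averaged. A probe entered if both channels of either genotype were well above background, and the brightest such probe stood for a gene. RefSeq accessions or symbols named 31001 probes, and 8428 kept the array's name. Both arrays were fitted with lmFit and eBayes (1 residual and 4.03 prior degrees of freedom) and p-values adjusted by Benjamini-Hochberg over all genes. A sign-flip test of 2 arrays cannot go below an exact p of 0.5 and was not used. The script was tested on simulated data. Named list genes are up to 3 called members with the largest change, else the 1 with the largest, plus defining markers, and 1 gene that this rule takes is not reported here. Synpo2 was named after its values were seen, as were other list genes taken neither by this rule nor by the nearest-gene comparison. The members and lists were chosen with earlier results of these data known. The array pairs the RNAs, since each ratio is taken within it.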

Additional observations from a re-analysis of the deposited data

Results flagged for a closer look

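Some ratios had opposite signs on the arrays, which differ in labelled sex and in dye orientation at once. On replicate 2 the RNAs also differed from each other in sex-linked transcripts, with Xist high in the RNA labelled Bmp4cKO and the Y-linked Ddx3y high in the RNA labelled control, so sex and genotype cannot be told apart on that array. The difference was not tested in any of these cases. For the dimmer Pdgfb probe, replicate 2 minus replicate 1 was 0.387 on the log2 scale (-0.08 on replicate 1 and 0.31 on replicate 2). For Pdgfrb it was 0.0433, an SD between arrays of 0.031, where the median SD over all genes was 0.133. Larger differences were found outside the PDGF genes, at 2.22 for Egr2, 2.38 for Col1a1 and 2.11 for Dcn.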

How the results depend on the processing

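In the signed folds of the authors' deposited table, in their own sign, every member with a ratio away from 0 reversed, with a mean log2 of -0.20 for Pdgfa, -0.20 for Pdgfb, 0.84 for Pdgfc, -0.12 for Pdgfd and -0.38 for Pdgfra, which follows from the table's direction. Pdgfrb reversed to -0.01 (-0.0099) with processed signals, at an adjusted p of 0.98. With an intensity trend in the prior, Pdgfc passed (-0.82, limma adjusted p = 0.00899), so that 1 member was called lower. The cause was not tested. In the other planned settings that use both arrays no member changed its call or sign. Single arrays gave ranges of 0.18 to 0.22 for Pdgfa, 0.11 to 0.32 for Pdgfb, -0.99 to -0.66 for Pdgfc, 0.08 to 0.12 for Pdgfd, 0.17 to 0.64 for Pdgfra and -0.02 to 0.03 for Pdgfrb, which thus reversed on replicate 1 alone, with no test, since 1 array leaves no residual degrees of freedom.

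Counts over all genes, 195 higher and 225 lower, became 339 and 388 with plain subtraction, 611 and 671 with the trend, and 0 and 0 with median centring in place of loess (limma, 1760 genes at an unadjusted p under 0.05). With the authors' signed folds, in their own sign, which runs opposite to the ratios here, 338 genes were higher and 298 lower. Fitting channels without the array as a block (no pairing) gave 150 and 164 genes and an adjusted p of 0.07 for Pdgfc, and with a dye term and no block 129 and 121 genes. It changed no call of a member. Pathway genes called lower were 1 with plain subtraction, 2 with no filter on dim probes, 2 with a robust prior and 3 with the trend, which also called 1 higher. Marker genes called higher were 19 with the trend, 6 with a robust prior and 0 with median centring, which called 0 lower. Each of these counts covers the alternatives run here. The number of arrays, 2, limits the precision, and all member probes were well above background.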
